A study of Homo sapiens with 12 samples.

Results

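The genes described here are a list of 37 hypoxia response and glycolysis genes: glucose and lactate transporters, the enzymes of glycolysis, the kinases that steer its flux, and genes turned on by the hypoxia-inducible factors (HIF). Of these, 33 were measured, among 17958 genes in all. They were taken from array probe sets that name a single gene, and where a gene had several, the one with the brightest mean of all 12 arrays stood for it. SLC16A3 and CA9 had no probe set named here, and PGAM1 and ANKRD37 were only on probe sets that name several genes, so those 4 were not analysed. The RNA came from BT549, a human triple-negative breast cancer cell line, and was hybridised to Affymetrix gene arrays. For 72 hours the cells carried either control siRNA or pooled siRNAs that target c-Jun, one partner of the AP-1 transcription factor dimer, and then vehicle or tumour necrosis factor (TNFα) for 6 hours. This gave 4 groups of 3 arrays: control siRNA with vehicle, control siRNA with TNFα, c-Jun siRNA with vehicle, and c-Jun siRNA with TNFα. All groups are 1 cell line with siRNA, no label states a reduced oxygen supply, and whether the replicates are separate cultures is not labelled, so every p-value speaks of the spread among these 12 samples, which may be technical.

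HIF is a pair of proteins, an alpha subunit such as HIF1A and a constant partner. When oxygen is present, the EGLN prolyl hydroxylases mark the alpha subunit for destruction; when it is scarce, the subunit lasts and HIF turns on genes for glucose uptake, glycolysis and mitophagy, the removal of mitochondria. EGLN1 and EGLN3 are themselves among the genes HIF turns on, which makes a feedback loop, and many cancer cells keep glycolysis high even with oxygen.

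JUN, the gene for c-Jun, read 10.36, 10.35 and 10.36 with control siRNA and vehicle, and 9.82, 9.85 and 9.81 with c-Jun siRNA and vehicle, on the log2 scale used for every level below. With TNFα it read 11.12, 11.05 and 11.05 with control siRNA and 10.36, 10.33 and 10.39 with c-Jun siRNA. Each c-Jun siRNA group lay below its control siRNA group without overlap, and the arrays with both c-Jun siRNA and TNFα overlapped those with control siRNA and vehicle. The 12 array medians were between 5.62 and 5.68. Mean levels of the 5 mesenchymal markers of this line ran from 9.78 for CDH2 to 12.66 for VIM. The 6 markers that the line should lack, the oestrogen and progesterone receptor genes among them, had means from 3.72 to 5.37, 5 leukocyte markers from 3.81 to 5.05 and 4 endothelial markers from 3.93 to 6.30. Between groups, the summed log2 level of the mesenchymal markers was 56.30 with control siRNA and 55.08 with c-Jun siRNA in vehicle, and 55.45 and 54.19 in TNFα. The sum hides opposite moves. In control siRNA cells TNFα raised FN1 to 128% and lowered CDH11 to 60.2%, ZEB1 to 76.7% and CDH2 to 90.8%, and VIM was not called. CDH1, an epithelial gene, rose with c-Jun siRNA to 147% in vehicle and 193% in TNFα. Its level in all 12 arrays lay below every array's median. For c-Jun siRNA the other markers that the line should lack, ESR1, PGR, EPCAM, KRT19 and ERBB3, were not called under either treatment. With TNFα ERBB3 fell to 82.3% under control siRNA and 78.2% under c-Jun siRNA. CDH1 rose with TNFα to 139% under c-Jun siRNA and was not called under control siRNA. The endothelial sum was 18.80 with control siRNA and 19.57 with c-Jun siRNA in vehicle; of its 4 genes TEK rose (by 0.93), and PECAM1, CDH5 and VWF were not called in any comparison. The leukocyte sum in control siRNA cells was 21.25 in vehicle and 21.60 in TNFα, where ITGAM rose (by 0.78) and CD14 fell (by 0.30). The part of these markers in the results was not tested. The array names carry a position code, read here as a plate column: the c-Jun siRNA vehicle arrays were all in column 5 and the c-Jun siRNA TNFα arrays in columns 7 and 9, while each control siRNA group spread over 2 columns. The third array with c-Jun siRNA and TNFα has a name that can be taken for a repeat hybridisation of the first. It differed from the first by a root mean square of 0.121 over genes, against 0.119 to 0.142 for all pairs within a group, and was kept as a replicate; with both averaged into 1, the member counts given below as 27, 27, 19, 21 and 9 were 27, 26, 19, 18 and 8.

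HIF binds DNA at a core written ACGTG or GCGTG. As examples chosen after their values were seen, to show promoters with many, few and no matches among members that moved with TNFα or c-Jun siRNA, 5 windows of 250 bases up to the start of the gene are printed here 5′ to 3′ on the gene's own strand, from RefSeq on build GRCh38.p14, with each match to the core on either strand in capitals (the other strand reads CACGT or CACGC, and CACGTG counts on both strands). BNIP3, a mitophagy receptor gene, is at chr10:131981924-131982173 on the minus strand; DDIT4, an inhibitor of mTOR signalling, at chr10:72273674-72273923 on the plus strand, in a window that overlaps the antisense gene DDIT4-AS1; PPP1R3C, a subunit that brings a phosphatase to glycogen, at chr10:91633072-91633321 on the minus strand; ENO2, the neuronal form of enolase, at chr12:6914330-6914579 on the plus strand; and EGLN3, a HIF prolyl hydroxylase, at chr14:33951075-33951324 on the minus strand.
BNIP3: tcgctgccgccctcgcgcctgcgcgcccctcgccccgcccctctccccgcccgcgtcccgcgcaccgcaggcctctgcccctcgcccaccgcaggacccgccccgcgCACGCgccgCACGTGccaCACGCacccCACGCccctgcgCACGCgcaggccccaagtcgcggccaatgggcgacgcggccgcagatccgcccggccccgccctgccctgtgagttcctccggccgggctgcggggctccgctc
DDIT4: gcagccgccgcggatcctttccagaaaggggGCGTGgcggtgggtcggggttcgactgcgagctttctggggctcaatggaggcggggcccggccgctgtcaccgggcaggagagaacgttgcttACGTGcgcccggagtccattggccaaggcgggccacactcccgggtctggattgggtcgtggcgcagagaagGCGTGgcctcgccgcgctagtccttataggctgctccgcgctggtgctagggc
PPP1R3C: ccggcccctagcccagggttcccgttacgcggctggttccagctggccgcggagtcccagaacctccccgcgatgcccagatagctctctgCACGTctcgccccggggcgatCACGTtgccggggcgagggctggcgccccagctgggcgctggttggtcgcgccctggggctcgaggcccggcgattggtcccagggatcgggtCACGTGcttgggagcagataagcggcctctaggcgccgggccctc
ENO2: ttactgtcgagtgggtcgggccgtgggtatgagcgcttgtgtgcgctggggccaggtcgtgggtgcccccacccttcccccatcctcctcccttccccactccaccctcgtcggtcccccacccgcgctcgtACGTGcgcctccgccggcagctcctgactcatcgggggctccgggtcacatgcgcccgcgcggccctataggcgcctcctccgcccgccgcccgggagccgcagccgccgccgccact
EGLN3: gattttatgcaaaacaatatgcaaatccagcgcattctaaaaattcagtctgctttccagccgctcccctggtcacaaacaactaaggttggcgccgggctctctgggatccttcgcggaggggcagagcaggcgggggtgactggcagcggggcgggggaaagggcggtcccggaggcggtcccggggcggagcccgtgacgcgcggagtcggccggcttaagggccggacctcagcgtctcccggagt

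The BNIP3 window held 6 matches, all from 143 to 104 bases before the start, the PPP1R3C window 4, the DDIT4 window 3 and the ENO2 window 1. The EGLN3 window held 0, which says only that these letters are not in these 250 bases. Of the 33 measured members, 30 had a promoter in the table, with 50 windows in all. A core match was in 68.0% of the members' windows and in 49.5% of the 19637 windows of all genes compared. Median GC content was 69.2% in the members' windows and 62.4% in all windows, and the part of base composition in the first difference was not tested. The AP-1 site TGANTCA, where N is any base, was in 4 of the members' 50 windows (8.0%) and in 5.27% of all windows. Those 4 belong to HK1, at different starts of that gene, to KDM3A and to ENO2, with the site once in the ENO2 window shown above. These shares were not tested against each other. A match is a run of letters and not a measured binding site.

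In cells with control siRNA, TNFα lowered most of these genes. Of the 33 members 26 fell and 1 rose at an adjusted p under 0.05 (limma, Benjamini-Hochberg over all genes), where 35.7% of all genes were called, 21.9% lower and 13.8% higher. The median log2 difference was -0.27 over the members and -0.02 over all genes. The 3 TNFα arrays lay wholly on one side of the 3 vehicle arrays in 27 of the 33 members, which were the called ones. They did so in 45.3% of all genes, called or not. Genes with a low p tend to be separate in this way, so the separation is no further support for the calls. Within position column 7, a comparison of 2 arrays against 2 chosen after seeing the data, 26 members fell and 1 rose, where 30.6% of all genes were called. In bulk RNA, fewer cells with a transcript and less of it per cell cannot be told apart.

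All 4 genes that steer glycolytic flux fell, and PFKFB4 fell further than any other member. PFKFB4, which makes the fructose bisphosphate that activates phosphofructokinase, read 8.10, 8.19 and 8.20 with vehicle and 6.49, 6.41 and 6.67 with TNFα. It fell to 32.1% of its vehicle level (log2 difference -1.64 ± 0.08, SE, n = 3 arrays per group, adjusted p = 1.14e-11 in limma). Its relative PFKFB3, which read 10.53, 10.52 and 10.50 with vehicle and 9.93, 9.84 and 9.83 with TNFα, fell by 0.65 ± 0.04. PDK1, which switches off pyruvate dehydrogenase and so keeps pyruvate out of the citric acid cycle, went from 10.24, 10.35 and 10.37 to 9.33, 9.26 and 9.29, a fall to 49.1%. PDK3, another kinase of that enzyme, fell by 0.11 ± 0.04, just inside the threshold (adjusted p = 0.0463 in limma). Of these regulators PFKFB4 and PDK1 fell at least 2-fold, and falls of that size were not counted over all genes. The PDK3 call ended without any one of 7 arrays (adjusted p 0.054 to 0.243): control siRNA vehicle replicates 1 and 2, all of control siRNA TNFα, c-Jun siRNA vehicle replicate 1 and c-Jun siRNA TNFα replicate 3. It also ended with arrays centred on their medians (adjusted p = 0.158, range over all alternatives 0.0173 to 0.243).

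Among the 13 glycolytic enzymes 11 fell and 0 rose with control siRNA, with a median log2 difference of -0.18. ENO2 stood apart: it read 10.46, 10.52 and 10.52 with vehicle and 9.33, 9.28 and 9.20 with TNFα, a fall to 42.6% (-1.23 ± 0.04, adjusted p = 7.77e-14 in limma). ALDOC, an aldolase, fell to 65.8% and HK1, a hexokinase that traps glucose in the cell, to 79.4%. LDHA, which turns pyruvate into lactate, fell from 12.51, 12.52 and 12.53 to 12.13, 12.22 and 12.23, which is 79.9%.

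The other called enzymes moved less. The second hexokinase, HK2, fell to 85.8% and PFKP, a phosphofructokinase, to 84.8%. PGK1, a kinase of the ATP-making stage, fell to 88.3%, the aldolase ALDOA to 90.3% and the triose isomerase TPI1 to 91.3%. GPI, which isomerises glucose phosphate, fell to 92.4% and PKM, pyruvate kinase, to 94.1%. Another phosphofructokinase, PFKL, differed by -0.06 ± 0.04 and ENO1, the main enolase, by -0.08 ± 0.04, and neither passed the test. TPI1 has 3 probe sets, and on the other 2 the difference was -0.09 (adjusted p = 0.102) and -0.08 (adjusted p = 0.288), not called. The GPI call ended without control siRNA vehicle replicate 1 or 2 or TNFα replicate 2 (adjusted p 0.051 to 0.0674) and the PKM call without vehicle replicate 2 or TNFα replicate 2 (0.088 to 0.103), while ENO1 passed without vehicle replicate 1 or TNFα replicate 1 (0.0166 to 0.0367). With arrays centred on their medians the GPI (adjusted p = 0.0533) and PKM (0.124) calls ended; over all alternatives their adjusted p ran from 0.00216 to 0.0735 and from 0.0119 to 0.124.

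The HIF feedback and mitophagy genes did not move as one with control siRNA. BNIP3 fell from 11.68, 11.64 and 11.64 to 10.77, 10.73 and 10.75, or to 53.4% of its vehicle level (-0.91 ± 0.04, adjusted p = 1.07e-12 in limma). Its relative BNIP3L, also a mitophagy receptor, fell from 12.15, 12.09 and 12.18 to 11.86, 11.91 and 11.84, or to 82.9%. EGLN1, the main HIF prolyl hydroxylase, was the 1 member that rose, from 9.70, 9.68 and 9.64 with vehicle to 9.75, 9.86 and 9.79 with TNFα, without overlap (0.13 ± 0.04, adjusted p = 0.0171 in limma). EGLN3 read 7.32, 7.10 and 7.35 with vehicle and 7.29, 7.32 and 7.22 with TNFα, and these arrays overlapped. The EGLN1 call ended without control siRNA TNFα replicate 2 (adjusted p = 0.0988), without vehicle replicate 3 (adjusted p = 0.0721) and with the position column in the model (adjusted p = 0.0777). HIF1A itself differed by -0.03 ± 0.04 with control siRNA and 0.02 ± 0.04 with c-Jun siRNA, not called in either.

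All 6 of the other measured HIF targets fell with control siRNA. PPP1R3C went from 8.90, 8.97 and 9.02 to 7.81, 7.80 and 7.83, a fall to 45.1%, and DDIT4 from 11.84, 11.83 and 11.86 to 11.003, 10.85 and 10.92, a fall to 52.9%. MXI1, a MAX partner that opposes MYC, fell to 68.0%, the collagen prolyl hydroxylase genes P4HA1 and P4HA2 to 78.3% and 79.3%, and NDRG1, a stress response gene, to 85.4%. The oxygen-dependent histone demethylase genes fell too, KDM3A from 9, 8.99 and 9.04 to 8.26, 8.26 and 8.32 and KDM4B to 79.4% of its vehicle level. CA12, a carbonic anhydrase that handles acid at the cell surface, fell to 63.3%. The glucose transporters did not pass: SLC2A1 differed by -0.02 ± 0.04, and SLC2A3 had group means from 4.07 to 4.20, below every array's median, with no call in any comparison.

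With c-Jun siRNA the response to TNFα was again downward. Of the 33 members 27 fell and 0 rose, where 29.6% of all genes were called, 18.3% lower and 11.3% higher, and the median log2 difference was -0.25 over the members and -0.02 over all genes. In total 23 members fell under both siRNAs, a joint count that was not made over all genes. The effect sizes under the siRNAs, which come from separate arrays, had a Pearson correlation of 0.83 and a Spearman correlation of 0.74 over the 33 members; genes are not independent replicates, and this is a description only. No position column holds both c-Jun siRNA groups, so with this siRNA the column and TNFα cannot be told apart within a column, and with the column in the model 21 members and 13.2% of all genes were called.

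PPP1R3C fell furthest with c-Jun siRNA, from 9.33, 9.45 and 9.39 to 7.54, 7.18 and 7.41, or to 24.8% of its vehicle level (-2.01 ± 0.07, adjusted p = 7.41e-14 in limma). PFKFB4 fell from 8.62, 8.58 and 8.46 to 6.65, 6.59 and 6.91, or to 28.0%, and ENO2 from 10.29, 10.22 and 10.14 to 8.98, 8.96 and 9.05, or to 42.9%. These were the 3 members that fell at least 2-fold with c-Jun siRNA, a count that was not made over all genes. PDK1 fell to 57.9%, PFKFB3 to 61.1%, KDM3A to 62.6%, MXI1 to 68.8%, KDM4B to 72.5%, CA12 to 75.2%, P4HA1 to 84.3%, NDRG1 to 87.2% and PDK3 to 88.1%.

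SLC2A1, the main glucose transporter of most cells, fell here to 63.1%, and HK2 to 63.1% as well. Of the 13 enzymes 10 fell with c-Jun siRNA, with a median of -0.15. Besides HK2 and ENO2 these were ALDOC (73.7%), HK1 (78.6%), PFKP (85.8%), PGK1 (89.3%), TPI1 (89.9%), LDHA (90.2%), GPI (91.8%) and ENO1 (92.8%). On the other TPI1 probe sets the difference was -0.21 (adjusted p = 0.000579 in limma) and -0.12 (0.097, not called). ALDOA differed by -0.06, PKM by -0.03 and PFKL by -0.02, not called. The ENO1 call (adjusted p = 0.04 in limma) ended without any one of 6 arrays (adjusted p 0.0509 to 0.136), which are replicate 3 of both control siRNA groups, c-Jun siRNA vehicle replicates 1 and 2 and c-Jun siRNA TNFα replicates 1 and 3, and the GPI call without c-Jun siRNA vehicle replicate 2 or TNFα replicate 2 (0.0574 to 0.0711). With the position column in the model the calls of PGK1 (adjusted p = 0.223), LDHA (0.276) and ENO1 (0.448) ended, and with arrays centred on their medians those of GPI (0.104) and ENO1 (0.291). These are the highest adjusted p over all alternatives for PGK1, LDHA and GPI, and the lowest were 3.6e-05, 0.00043 and 0.00404; for ENO1 the range was 0.0159 to 0.448.

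**Figure D1:**
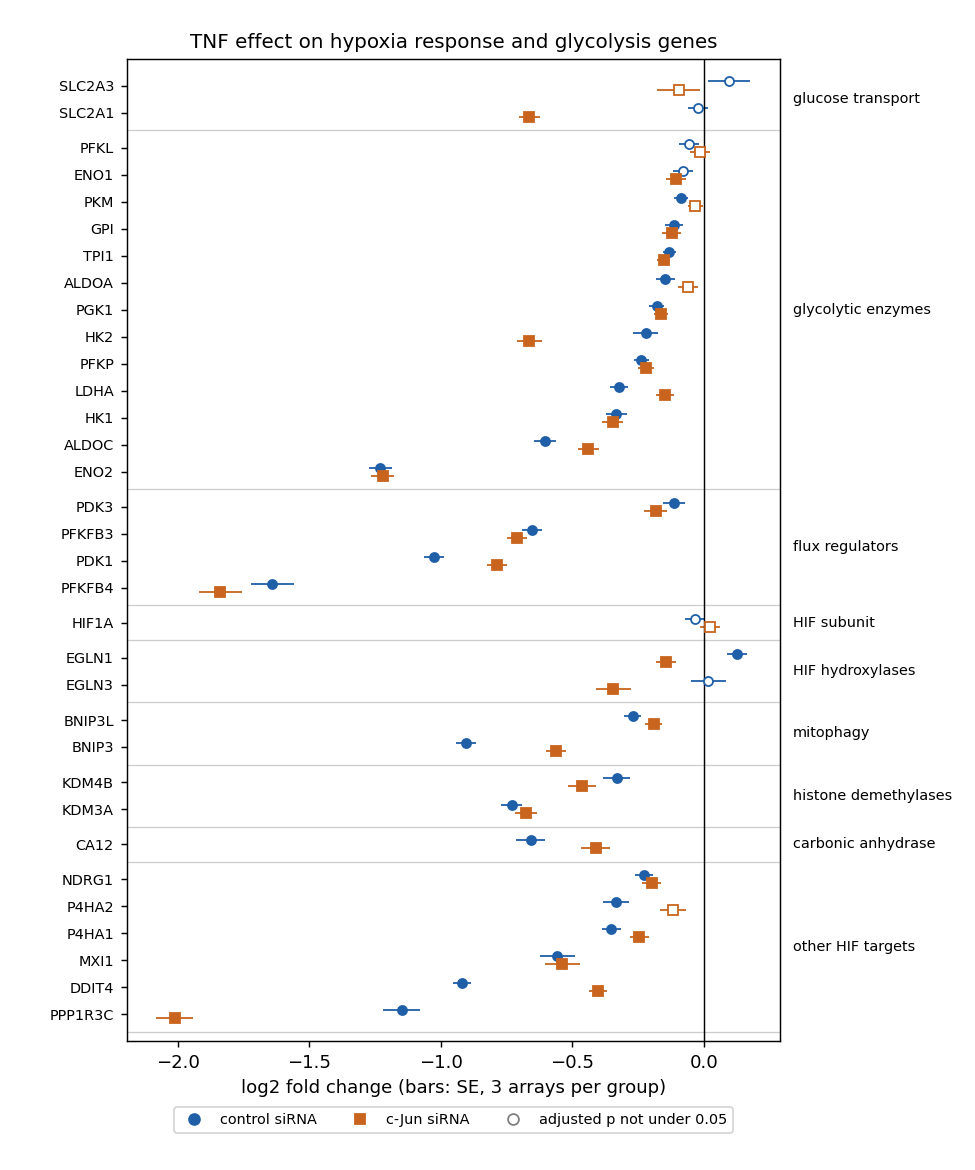
TNFα effect on each of the 33 measured members, as the log2 fold change (TNFα minus vehicle) with its SE, with control siRNA and with c-Jun siRNA, grouped by role; filled symbols passed adjusted p under 0.05 and open ones did not. With control siRNA 26 members fell and EGLN1 was the 1 that rose, and with c-Jun siRNA 27 fell.

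All 4 HIF feedback and mitophagy genes fell with c-Jun siRNA. EGLN3 went from 8.19, 8.06 and 8.19 to 7.85, 7.77 and 7.78 (78.8%), and EGLN1 from 9.77, 9.66 and 9.69 to 9.58, 9.54 and 9.57 (90.5%). BNIP3 fell from 12.01, 12.05 and 11.89 to 11.46, 11.35 and 11.45 (67.7%) and BNIP3L to 87.6%. The EGLN1 call ended with arrays centred on their medians (adjusted p = 0.0967), with the position column in the model (0.177) and when vehicle replicate 1 of that siRNA was left out (0.0615), and the EGLN3 (0.302) and BNIP3L (0.207) calls with the position column, so BNIP3 was the 1 of the 4 that stayed called there. Over all alternatives the adjusted p ran from 0.00385 to 0.177 for EGLN1, from 0.00012 to 0.302 for EGLN3 and from 4.68e-05 to 0.207 for BNIP3L. Among the other targets DDIT4 fell to 75.6%, and P4HA2, at -0.12 ± 0.05, was not called, though it passed once vehicle replicate 3 of that siRNA was left out (adjusted p = 0.0369).

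Set side by side, all 13 enzymes had differences below 0 under either siRNA, while the 4 feedback and mitophagy genes were split with control siRNA and all below 0 with c-Jun siRNA. These counts of signs include differences that were not called. Of all 17958 genes, 10211 were below 0 with control siRNA and 9849 with c-Jun siRNA. With control siRNA the 13 enzymes ran from -1.23 (ENO2) to -0.06 (PFKL) with a median of -0.18, and the 4 feedback and mitophagy genes from -0.91 (BNIP3) to 0.13 (EGLN1) with a median of -0.13. With c-Jun siRNA the medians were -0.15 and -0.27. With KDM3A, KDM4B and MXI1 counted in, the feedback and mitophagy medians over 7 genes were -0.33 and -0.46. The 20 members outside the enzymes had medians of -0.34 and -0.41. The medians were not tested against each other, since the members were chosen with results of these data known.

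**Figure D2:**
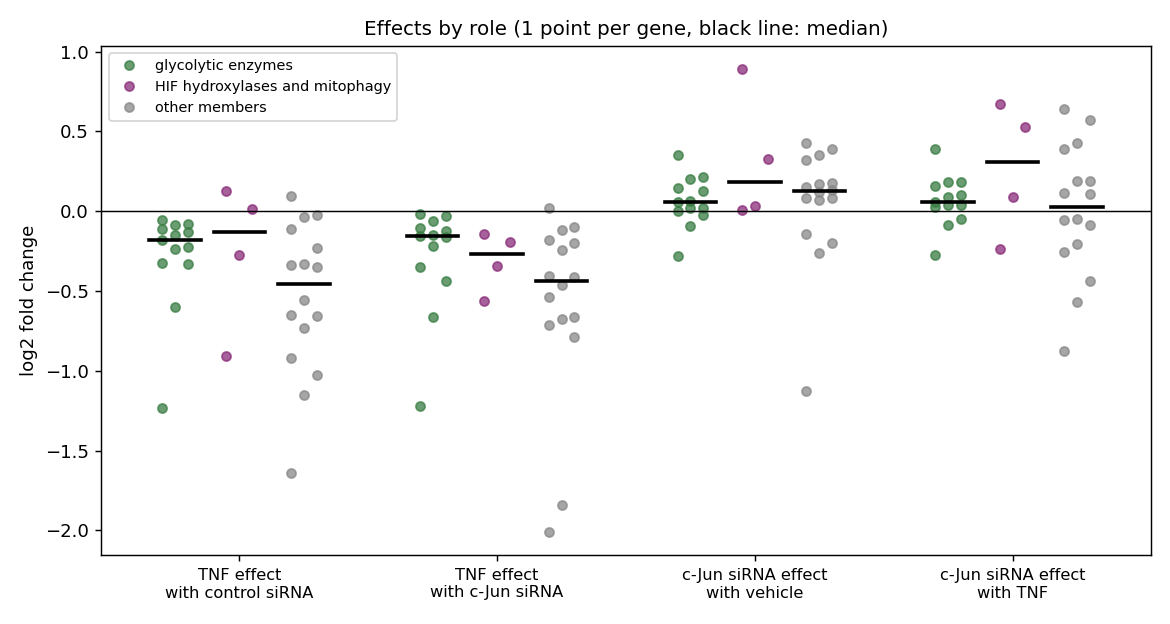
Log2 fold changes in the 4 pairwise comparisons for the glycolytic enzymes, the HIF hydroxylase and mitophagy genes, and all other measured members, with 1 point per gene and a black line at each median. The 13 glycolytic enzymes have medians of -0.18 and -0.15 for TNFα, and the 4 feedback and mitophagy genes -0.13 and -0.27.

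The c-Jun siRNA by itself, in vehicle-treated cells, raised more of these genes than it lowered. Of the 33 members 14 rose and 5 fell, where 28.9% of all genes were called, 14.4% higher and 14.5% lower. Position column 5, also looked at after seeing the data, holds 3 arrays with c-Jun siRNA and 1 with control siRNA; assuming that the lone array varies like the other groups, 11 rose and 4 fell there, where 19.5% of all genes were called. The median log2 difference was 0.08 over the members and -0.01 over all genes. EGLN3 rose most, from 7.32, 7.10 and 7.35 with control siRNA to 8.19, 8.06 and 8.19, or to 185% (0.89 ± 0.07, adjusted p = 5.96e-09 in limma). PPP1R3C rose to 134%, PFKFB4 to 131%, P4HA2 and HK2 to 128%, BNIP3 to 126% and P4HA1 to 125%. CA12 fell most, from 9.10, 8.97 and 9.01 to 7.91, 7.83 and 7.96, or to 45.9% (-1.12 ± 0.06, adjusted p = 2.18e-11 in limma).

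Of the enzymes, HK2, LDHA, TPI1, PFKP and ENO1 rose and ENO2 fell with c-Jun siRNA and vehicle, while 7 did not pass. LDHA rose to 116%, TPI1 to 115%, PFKP to 110% and ENO1 to 109%, and ENO2 fell to 82.2%. Those that did not pass were HK1, GPI, PFKL, ALDOA, ALDOC, PGK1 and PKM, with differences from -0.09 to 0.07. Among the regulators PDK3 rose to 113% and PDK1 to 111%, and PFKFB3 fell to 87.2%. KDM3A fell to 83.5% and HIF1A, the alpha subunit gene, to 90.4%, while DDIT4 rose to 109%. SLC2A1, SLC2A3, EGLN1, BNIP3L, KDM4B, NDRG1 and MXI1 did not pass, with differences from 0.01 to 0.17. The ENO1 call ended without control siRNA vehicle replicate 1 or c-Jun siRNA vehicle replicate 1 or 2 (adjusted p 0.0527 to 0.1), and the DDIT4 call without c-Jun siRNA vehicle replicate 1 or 3 (0.0543 to 0.0557). All c-Jun siRNA vehicle arrays are in column 5, and with the position column in the model 10 members rose and 4 fell: the calls of PFKFB4 (adjusted p = 0.0516, lowest over all alternatives 0.00023), HIF1A (0.13, 0.00171), DDIT4 (0.147, 0.00506), ENO1 (0.156, 0.00314) and PDK1 (0.227, 0.00246) ended. Leaving out c-Jun siRNA vehicle replicate 3 made SLC2A1 (adjusted p = 0.0185) and NDRG1 (0.029) pass, and leaving out control siRNA vehicle replicate 1 or 3 made MXI1 (0.0408) or PFKL (0.0391) pass.

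In cells given TNFα, c-Jun siRNA again raised 14 members and lowered 7, where 28.5% of all genes were called, 14.1% higher and 14.4% lower. Within a position column 1 arm is always a single array, assumed to vary like the other groups. Column 7, with 1 array of c-Jun siRNA and 2 of control siRNA, gave 10 rises and 7 falls, where 19.2% of all genes were called. Column 9, with 1 array of control siRNA and 2 of c-Jun siRNA, which are the possible repeat hybridisation and its first run, gave 10 and 5, where 17.7% were called. Here 10 members rose under both treatments, and ENO2, PFKFB3, KDM3A and CA12 fell under both. Such joint calls were not counted over all genes. BNIP3 rose most, from 10.77, 10.73 and 10.75 with control siRNA to 11.46, 11.35 and 11.45, or to 159% (0.67 ± 0.04, adjusted p = 2.36e-10 in limma). DDIT4 rose from 11.003, 10.85 and 10.92 to 11.59, 11.56 and 11.54 (156%), P4HA2 to 149%, EGLN3 to 144%, P4HA1 to 134%, and LDHA and PDK1 to 131%. ALDOC and TPI1 rose to 113% and PFKP to 112%.

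The falls with c-Jun siRNA and TNFα were CA12 (to 54.5%), SLC2A1 (67.4%), PPP1R3C (73.8%), ENO2 (82.8%), PFKFB3 (83.7%), EGLN1 (84.8%) and KDM3A (86.7%). Smaller rises were in MXI1 (114%), NDRG1 (108%), ENO1 (107%) and BNIP3L (106%). Each of these last 4 calls ended without some arrays. That of ENO1 ended without any of 9 (adjusted p 0.05033 to 0.229), all but control siRNA vehicle replicates 1 and 2 and control siRNA TNFα replicate 1. That of BNIP3L ended without any of 7 (0.0538 to 0.186), namely replicate 1 of each group, control siRNA TNFα replicate 3 and c-Jun siRNA TNFα replicates 2 and 3. That of MXI1 ended without any of 5 (0.05009 to 0.192), namely control siRNA vehicle replicate 2, control siRNA TNFα replicates 1 and 3 and c-Jun siRNA TNFα replicates 2 and 3. That of NDRG1 ended without control siRNA TNFα replicate 2 or 3 or c-Jun siRNA TNFα replicate 3 (0.0597 to 0.139). Members not called were HK1, HK2, GPI, PFKL, ALDOA, PGK1, PKM, PFKFB4, PDK3, HIF1A, KDM4B and SLC2A3. Leaving out c-Jun siRNA TNFα replicate 2 made ALDOA (adjusted p = 0.0248) and GPI (0.0346) pass, leaving out that replicate or control siRNA TNFα replicate 3 made PFKFB4 pass (0.0299 to 0.0386), and leaving out c-Jun siRNA TNFα replicate 1 made PDK3 pass (0.04902). With the position column in the model the calls of NDRG1 (0.0813), BNIP3L (0.0828) and ENO1 (0.108) ended and HIF1A fell (adjusted p = 0.0169), and over all alternatives the adjusted p ran from 0.0101 to 0.535, 0.0166 to 0.411, 0.0171 to 0.897 and 0.0169 to 0.36.

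**Figure D3:**
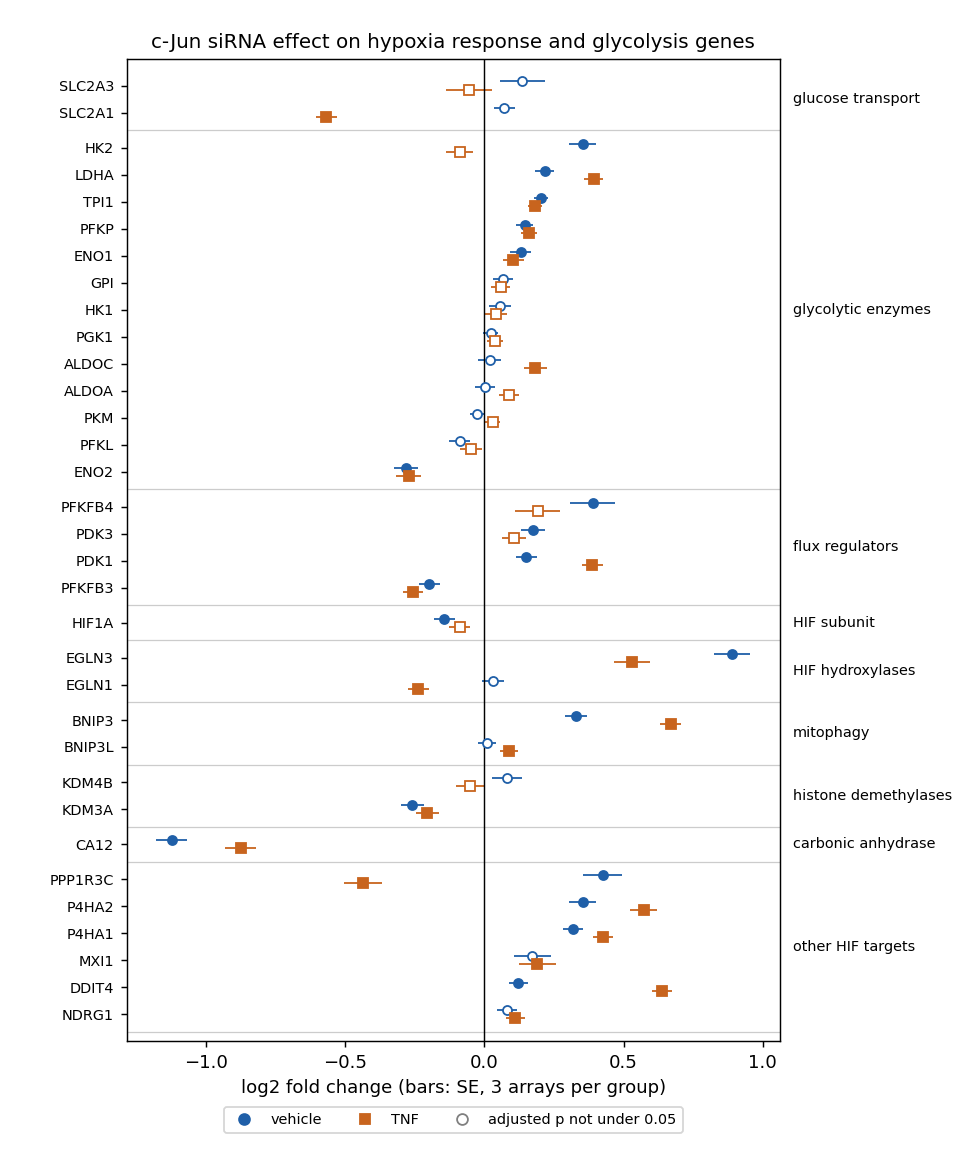
c-Jun siRNA effect on each of the 33 measured members, as the log2 fold change (c-Jun siRNA minus control siRNA) with its SE, in vehicle and in TNFα-treated cells, grouped by role; filled symbols passed adjusted p under 0.05. CA12 lies lowest under both treatments, at -1.12 and -0.88, and EGLN3 (0.89) and BNIP3 (0.67) lie highest.

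Whether TNFα acted differently with c-Jun siRNA was tested by the interaction term, the TNFα effect with c-Jun siRNA minus that with control siRNA. It passed for 9 of the 33 members, 4 higher and 5 lower, where 5.47% of all genes passed, 1.88% higher and 3.59% lower. In control siRNA cells SLC2A1 read 11.23, 11.24 and 11.29 without TNFα and 11.27, 11.21 and 11.22 with it, and in c-Jun siRNA cells without TNFα 11.34, 11.41 and 11.23. With both c-Jun siRNA and TNFα it read 10.68, 10.68 and 10.63, so the last group alone was low and did not overlap the others (interaction -0.64 ± 0.06, adjusted p = 4.74e-07 in limma). HK2, the next step after uptake, read 9.84, 9.84 and 9.76, then 9.63, 9.50 and 9.64, then 10.14, 10.15 and 10.20, then 9.40, 9.58 and 9.53 in the same order. It was highest with c-Jun siRNA and vehicle, and the TNFα groups overlapped (interaction -0.44 ± 0.07, adjusted p = 0.000322 in limma).

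PPP1R3C was higher with c-Jun siRNA in vehicle and lower with it in TNFα, and every group was separate (interaction -0.86 ± 0.10, adjusted p = 1.31e-05 in limma). The TNFα effects on the HIF hydroxylase genes were also lower with c-Jun siRNA, EGLN1 with an interaction of -0.27 ± 0.06 (adjusted p = 0.00542) and EGLN3 with -0.36 ± 0.09 (adjusted p = 0.0267). The mitophagy gene BNIP3 went the other way: TNFα lowered it less with c-Jun siRNA (0.34 ± 0.05, adjusted p = 0.000517). DDIT4 fell by 0.92 in control siRNA cells and by 0.40 in c-Jun siRNA cells (0.52 ± 0.05, adjusted p = 2.07e-06), and PDK1 (0.24 ± 0.05, adjusted p = 0.0105) and LDHA (0.18 ± 0.05, adjusted p = 0.0401) also fell less. These hydroxylases and BNIP3 are in the same role list, which had 1 member with a higher and 2 with a lower interaction, while of the 13 enzymes LDHA was higher and HK2 lower.

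The EGLN3 and LDHA interactions passed close to the threshold. EGLN3 lost its call without any of 7 arrays (adjusted p 0.0551 to 0.0767), all but control siRNA vehicle replicates 1 and 3, control siRNA TNFα replicate 3, c-Jun siRNA vehicle replicate 2 and c-Jun siRNA TNFα replicate 1. In those fits its interaction ran from -0.35 to -0.28. LDHA lost its call without any of 9 (0.05003 to 0.106), all but control siRNA TNFα replicate 3, c-Jun siRNA vehicle replicate 2 and c-Jun siRNA TNFα replicate 2. Over all alternatives the adjusted p ran from 0.0123 to 0.297 for EGLN3 and from 0.017 to 0.185 for LDHA. Among members not called, ALDOC, P4HA2 and CA12 passed without c-Jun siRNA TNFα replicate 2 (adjusted p 0.023, 0.0334 and 0.036).

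**Figure D4:**
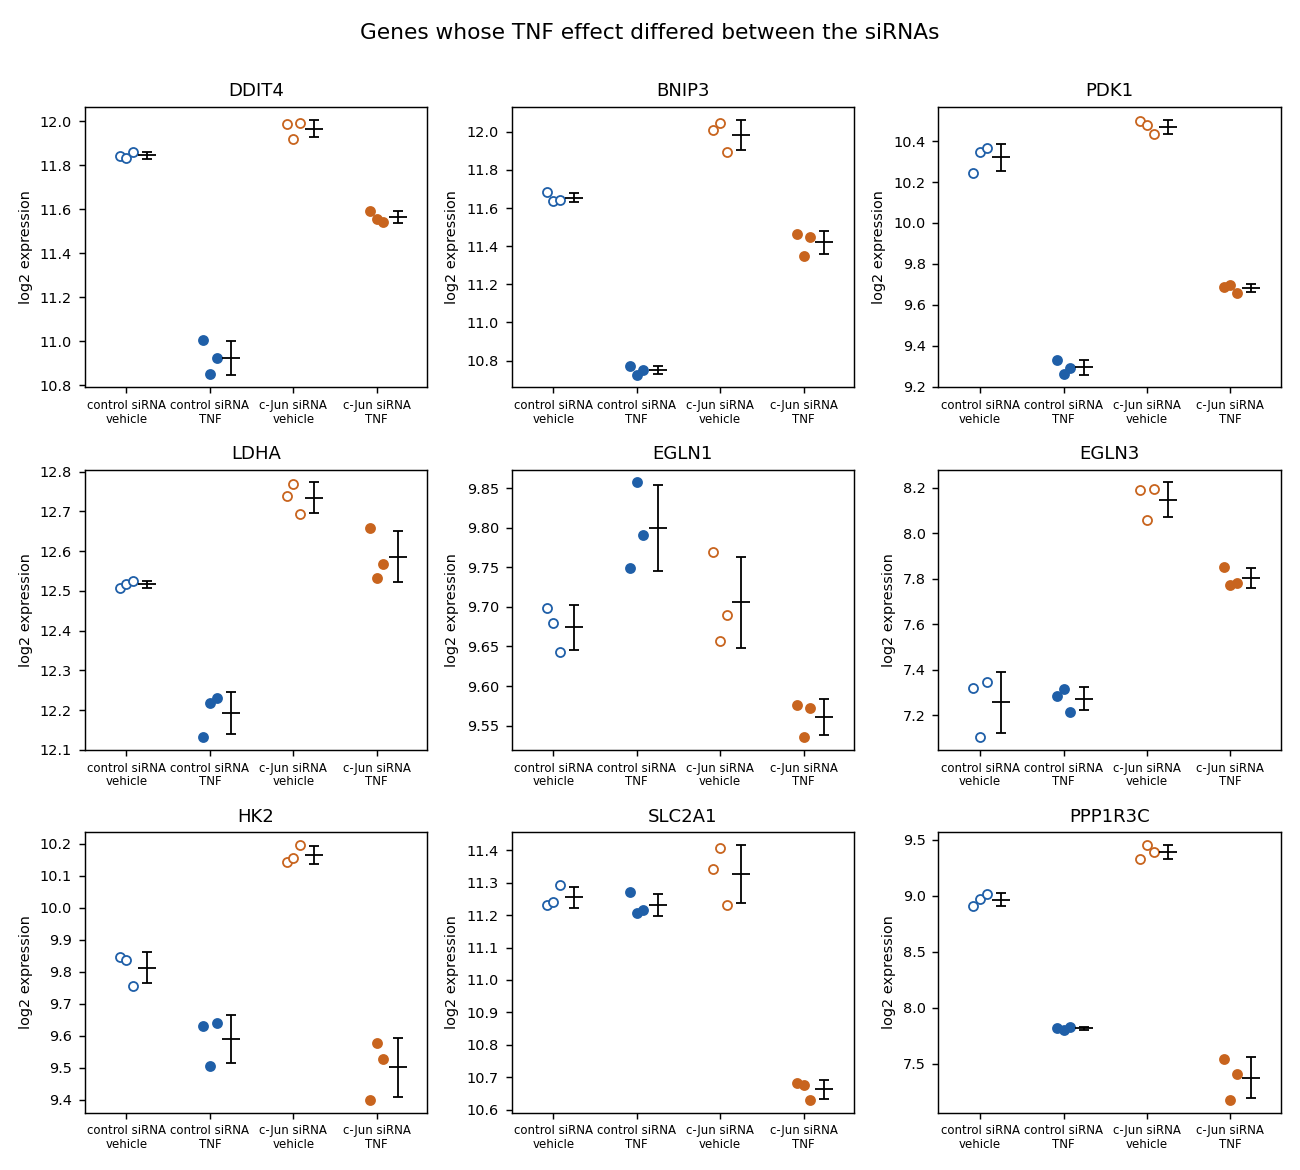
Log2 level in each of the 12 arrays for the 9 members with a called interaction, 1 panel per gene with its own axis; open points are vehicle, filled points TNFα, and black bars the mean ± SD of 3 arrays. SLC2A1 lies low only with both c-Jun siRNA and TNFα, and BNIP3 and DDIT4 fall less with c-Jun siRNA.

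Another 52 genes of these pathways were read from a wider list. With control siRNA TNFα raised 4 and lowered 33 of them, where 13.8% of all genes rose and 21.9% fell. In c-Jun siRNA cells it raised 8 and lowered 32, where 11.3% rose and 18.3% fell. Of the 30 further HIF targets 25 fell under each siRNA, and 2 rose under control siRNA and 3 under c-Jun siRNA (medians -0.36 and -0.33). Of 14 further glycolysis genes 6 fell and 1 rose under control siRNA, and 4 fell and 3 rose under c-Jun siRNA (medians -0.12 and -0.01). The lists were not tested against each other. The HIF target ANGPTL4, an inhibitor of lipoprotein lipase, fell by 1.60 with control siRNA and by 2.01 with the other siRNA; ZNF395 fell by 1.52 and 1.32, and VLDLR, a lipoprotein receptor gene, by 1.06 and 1.21. STC2, a secreted glycoprotein gene, fell by 1.22 with control siRNA, and with c-Jun siRNA its mean went from 9.41 to 8.70. HMOX1, which breaks down haem and responds to oxidative stress too, rose by 1.01 with c-Jun siRNA. With control siRNA its mean went from 10.99 in vehicle to 11.42 in TNFα.

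With c-Jun siRNA 17 of the 52 rose and 8 fell in vehicle, where 14.4% of all genes rose and 14.5% fell, so the falls were near the share over all genes. In TNFα 19 rose and 4 fell, where 14.1% rose and 14.4% fell. ADM, the vasodilator adrenomedullin, rose by 0.88 in vehicle and 1.62 in TNFα on the log2 scale: it read 8.59, 8.63 and 8.56 with control siRNA and vehicle, 8.12, 8.13 and 8.19 with TNFα added, 9.44, 9.55 and 9.45 with c-Jun siRNA and vehicle, and 9.82, 9.66 and 9.81 with both. So ADM fell by 0.45 with TNFα under control siRNA and rose by 0.28 under c-Jun siRNA (interaction 0.73 ± 0.07, adjusted p = 1.45e-06 in limma). PLOD2, a collagen lysyl hydroxylase gene, rose by 0.76 and 0.79, and ERO1A, an oxidase of the endoplasmic reticulum, by 0.70 and 0.60. HIF1AN, a hydroxylase that blocks HIF activity, rose by 0.53 in TNFα, and VLDLR by 0.61 in vehicle. The interaction passed for 9 of the 52, 6 higher and 3 lower, where 5.47% of all genes passed, 1.88% higher and 3.59% lower. Besides ADM, the higher ones included HMOX1 (0.58), STC2 (0.51) and BPGM (0.43), a gene of the bisphosphoglycerate side branch of glycolysis.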

How the data were processed

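Total RNA of 12 samples was measured on Affymetrix arrays. The deposited values are used as log2 expression per probe set. They ran from 2.27 to 13.97, from which the logarithm's base was taken, and their scaling is not given in the sources used here. Per the submitters' processing notes, Affymetrix Expression Console 1.1 and PLIER were among the tools, with no role stated. No further normalisation was done. Of 33297 probe sets 19181 named 1 gene, 2055 several and 12061 none. Genes with several probe sets (895) used the one with the highest mean. limma 3.58.1 in R 4.3.3 fitted a mean per group to all 12 arrays and 17958 genes, with a mean-variance trend. Residual degrees of freedom were 8, tests were two-sided, and adjusted p-values under 0.05 (Benjamini-Hochberg) were called. Errors of differences are standard errors. The number of arrays limits precision.

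The members, the lists and the tests were chosen with earlier results of these data known. Named genes are all measured members, JUN and up to 4 called genes of the wider list per comparison with the largest absolute change. Some markers and dim genes of the wider list are also named. The fit was also run on simulated data with independent noise and few changed genes, unlike these data, and no result here rests on that run. Alternatives were normalisations, floors and filters on dim genes, probe set rules, variance models, thresholds, blocks, wider role lists and each array left out. Promoter windows came from RefSeq. Python 3.11.15, pandas 2.3.3 and matplotlib 3.10.9 handled tables and plots.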

Additional observations from a re-analysis of the deposited data

Results flagged for a closer look

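For 9 of the 33 members the TNFα effect differed between the siRNAs by the interaction term (limma, adjusted over all genes), where 5.47% of all genes passed. The TNFα effect with c-Jun siRNA minus that with control siRNA was -0.86 for PPP1R3C, -0.64 for SLC2A1, -0.44 for HK2, -0.36 for EGLN3 and -0.27 for EGLN1 on the log2 scale. It was 0.52 for DDIT4, 0.34 for BNIP3, 0.24 for PDK1 and 0.18 for LDHA. The interaction call ended for LDHA under 16 of 25 alternatives, for EGLN3 under 10 and for PDK1 under 1. EGLN1 was called higher with TNFα under control siRNA and lower under c-Jun siRNA. The first of these EGLN1 calls ended under 4 of 27 alternatives and the other under 3 of 26. Groups of 3 arrays were too small to look for single outlying arrays.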

How the results depend on the processing

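Over the 5 comparisons, 4858 results for single genes under an alternative kept their side of the threshold, 157 lost a call and 29 gained one. Called results kept their direction, and 54 uncalled ones, from 23 results, turned sign. The count of called members stayed within 1.5 times under every alternative: 23 to 28 for TNFα with control siRNA, 21 to 28 with c-Jun siRNA, 14 to 20 and 15 to 23 for c-Jun siRNA with vehicle and with TNFα, and 6 to 11 for the interaction. Deviations of same-numbered arrays from their group means had correlations from -0.0586 to 0.0884 over 18 pairs. A shared effect could be too small to show there, so this does not settle whether the numbers mark a pairing. With a replicate block 26, 27, 19, 19 and 8 members were called in these comparisons. Medians of the role lists, which have no test, moved by more than their spread as follows, and the cause was not tested. Adding KDM3A, KDM4B and MXI1 gave feedback and mitophagy medians of -0.33 and -0.46 for TNFα, 0.081 and 0.089 for c-Jun siRNA and 0.018 for the interaction, where the sign turned. Adding transporters, PFKFB3 and PFKFB4 gave an enzyme interaction median of -0.0093, and the position block gave -0.018, both turned in sign. Centring arrays on their medians gave enzyme medians of -0.15 (control siRNA) and -0.10 (c-Jun siRNA) for TNFα and -0.22 for feedback and mitophagy with c-Jun siRNA. The position block gave -0.20 for that last median, quantile normalisation gave -0.19 for the enzymes with TNFα and c-Jun siRNA, and position column 9, added after seeing the data, gave 0.022 for the enzymes with c-Jun siRNA and TNFα. With each array left out, the feedback and mitophagy medians for TNFα ran from -0.18 to -0.094 with control siRNA and from -0.30 to -0.25 with c-Jun siRNA. The enzyme medians for c-Jun siRNA ran from 0.028, without c-Jun siRNA vehicle replicate 1, to 0.067 with vehicle, and from 0.044 to 0.085 with TNFα. Levels near background, such as SLC2A3, limit what can be seen.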
